A study of Mus musculus with 34 samples.

Results

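Phase II conjugation enzymes were described here as the 63 protein-coding genes whose symbols begin with Ugt1, Ugt2, Gsta, Gstm, Gstp, Gstt, Gstz, Gsto, Gstk, Mgst or Sult, chosen by name alone from the 48278 genes of the hepatic expression table, with no pseudogene among them. They comprise 19 UDP-glucuronosyltransferase genes, 21 soluble and 3 microsomal glutathione S-transferase genes and 20 sulfotransferase genes. The study profiled poly(A) RNA from mouse fibroblasts, from cells induced out of fibroblasts by chemicals through an extraembryonic endoderm (XEN)-like state, and from neuronal and liver references. All libraries used for the main comparisons carry the strain label Mapttm2(EGFP)Klt/J, a line with an EGFP reporter at the Mapt locus, so the controls carry that allele too. They were 4 libraries of hepatocyte-like cells induced by chemicals from fibroblasts by way of the XEN-like state, 2 of hepatocytes, 2 of hepatic tissue and 2 of embryonic fibroblasts. One further library, P24, is labelled as neuronal cells derived from chemically induced XEN-like cells and stands in a table of its own. The labels give no age, sex, time point, compound name or number of animals for these libraries, and do not say whether libraries of a group came from separate cultures or animals, so p-values measure only the spread between these libraries.

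Phase II enzymes attach a polar group to drugs, hormones and waste products so that these can leave the cell in bile or urine. UDP-glucuronosyltransferases sit in the membrane of the endoplasmic reticulum and transfer glucuronic acid from UDP-glucuronate, glutathione S-transferases couple electrophiles to glutathione, and sulfotransferases transfer sulfate from the donor PAPS. Liver is the main site of all 3 reactions, and many of these genes are known to respond to the regulators NRF2, CAR, PXR and HNF4A.

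Sequence bears on how these genes can be counted, so the coding sequences were compared first. The 9 Ugt1a genes overlap on chromosome 1 and end in the same exons: the last 737 coding bases were identical in all 9, between 45.9% and 46.5% of each coding sequence. Reads from that stretch cannot be assigned to 1 gene, and the deposited values of these genes are estimates that rest on the first 847 to 868 bases. The bases around the join are shown 5′ to 3′ for 4 genes whose levels differed most between cell types, with the 40 bases before the stretch common to all 9 in lower case and the first 20 common bases in capitals (GENCODE vM21, GRCm38, plus strand).
Ugt1a1: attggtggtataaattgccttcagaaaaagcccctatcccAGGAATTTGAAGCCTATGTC
Ugt1a5: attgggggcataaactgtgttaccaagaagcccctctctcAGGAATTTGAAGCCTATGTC
Ugt1a7c: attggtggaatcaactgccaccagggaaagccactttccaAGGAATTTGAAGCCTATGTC
Ugt1a9: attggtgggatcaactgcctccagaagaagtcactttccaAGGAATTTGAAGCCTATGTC
The 40 bases shown for Ugt1a5 are the same in Ugt1a2, so even this stretch is not always a gene's own.
Other close pairs were Ugt1a6a and Ugt1a6b with 98.4% identical coding bases, Gstp1 and Gstp2 with 98.1%, Gsta1 and Gsta2 with 97.6%, Ugt2b5 and Ugt2b38 with 97%, Ugt1a9 and Ugt1a10 with 95.3%, Sult2a1 and Sult2a5 with 94.9%, Ugt2b37 and Ugt2b5 with 94.7%, Sult2a3 and Sult2a4 with 94.4%, Ugt1a7c and Ugt1a8 with 91.5% and Sult3a1 and Sult3a2 with 90.9%. Values within such a pair are uncertain, since the counting could split reads between the copies.

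Promoter windows of 300 bases, from 250 before to 50 after the gene start, were found for 56 of the 63 genes in RefSeq (GRCm38.p6). The antioxidant response element core, TGACNNNGC on either strand as for all motifs here, was present in 4 of the 56 (Gsta3, Gstm5, Gstm7 and Mgst1) and in 12.4% of all 32851 windows. HNF4 letters, CAAAGTCCA, were in the window of Sult1b1 alone and in 0.5% of all windows, and the STAT letters, TTCNNNGAA, in 6 of the 56 and in 8.3% of all. The windows of 2 genes are printed because they mark the patterns described below: Gsta3 split the hepatocyte-like libraries and Sult3a1 split the liver libraries. Capitals mark the matched letters, of the antioxidant response element in Gsta3 (chr1:21240335-21240634, plus strand) and of STAT in Sult3a1 (chr10:33857472-33857771, plus strand). A match describes letters only and is no evidence of a bound factor.
Gsta3: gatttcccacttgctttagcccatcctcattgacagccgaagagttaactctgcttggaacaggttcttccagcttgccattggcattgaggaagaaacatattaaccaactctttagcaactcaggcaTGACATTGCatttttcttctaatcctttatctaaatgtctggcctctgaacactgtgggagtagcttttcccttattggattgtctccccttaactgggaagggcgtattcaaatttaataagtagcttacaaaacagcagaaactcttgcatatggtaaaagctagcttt
Sult3a1: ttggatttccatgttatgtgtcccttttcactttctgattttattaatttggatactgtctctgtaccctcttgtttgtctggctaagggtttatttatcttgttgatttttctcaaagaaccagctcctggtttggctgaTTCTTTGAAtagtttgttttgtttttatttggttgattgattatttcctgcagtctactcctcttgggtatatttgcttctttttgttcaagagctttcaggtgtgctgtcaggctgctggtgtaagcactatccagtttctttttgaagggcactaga

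Levels are the deposited values, taken as FPKM (mapped fragments scaled by transcript length and library size), which can be compared between genes. The hepatic table's headers name no unit. Depth per library is unknown, since no counts are given. Between 12293 and 13383 genes reached 1 FPKM in the hepatocyte-like and fibroblast libraries and between 10312 and 10472 in the 4 liver libraries. The hepatocyte-like libraries held hepatic transcripts (Hnf4a between 38.6 and 89.8 FPKM, Afp between 364 and 2647), but Cyp2e1 was listed at 0 in all 4. Biliary Krt19 (776 to 2157 FPKM) and the intestinal and endodermal Tff3 (2072 to 5327 FPKM) were high, each 1 gene of its list. By the calls defined below, 6 of 8 extraembryonic endoderm, 4 of 5 cholangiocyte and 3 of 5 tested intestinal markers were higher than in hepatocytes and 0 lower. Of 12 hepatocyte markers 0 were higher and 8 lower. Over all genes 41.3% were higher and 7.54% lower. In the same order 5, 3, 4 and 5 were higher than in fibroblasts (11.4% over all genes). There 1 cholangiocyte and 1 intestinal marker were lower (15% over all genes). Alb is listed at 0 in hepatocyte 1 and tissue 2 and at 51325 and 44788 FPKM in hepatocyte 2 and tissue 1, so an exact 0 in this table can be a failed estimate and is reported here as listed at 0. P24 was low for neuronal genes (Map2 0.767 and Syn1 0.155 FPKM, Rbfox3 listed at 0). Of 7 listed neuron markers 3 reached 1 FPKM in P24. Their sum was 9.20 FPKM there, against 1.11 to 6.11 in the hepatocyte-like libraries. In the primary neurons, normalised separately, that sum was 989 and 77 FPKM. P24 was high for Afp (2924 FPKM) and Alb (1429 FPKM). Its neuronal label thus goes against its markers, and it is called the library labelled P24. By their titles, hepatocyte-like 3 and 4 and both fibroblast libraries share a flow cell, hepatocyte-like 1 and 2 each come from another, and all 4 liver libraries from yet another, so flow cell and group cannot be told apart in the comparisons with liver.

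The enzymes as a whole took a larger share of summed FPKM in liver and in the hepatocyte-like cells than in fibroblasts. Their summed FPKM made up 1.45, 1.03, 0.554 and 0.544% of all FPKM in hepatocyte-like libraries 1 to 4, 0.706 and 1.2% in hepatocytes, 1.31 and 0.882% in tissue, 0.194 and 0.135% in fibroblasts and 1.07% in P24. The hepatocyte-like range therefore overlapped that of liver and lay wholly above that of fibroblasts. Composition differed from liver: soluble glutathione transferases gave 0.46 to 1.29% of all FPKM in hepatocyte-like libraries, against 0.236 to 0.941% in the 4 liver libraries, whereas the Ugt genes gave 0.0282 to 0.0498% against 0.128 to 0.228%, and these Ugt ranges did not overlap. Sulfotransferases gave 0.00811 to 0.038% in hepatocyte-like libraries and 0.0466 to 0.221% in liver, again without overlap. In bulk RNA, fewer cells of a type and less RNA per cell cannot be told apart.

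**Figure D1:**
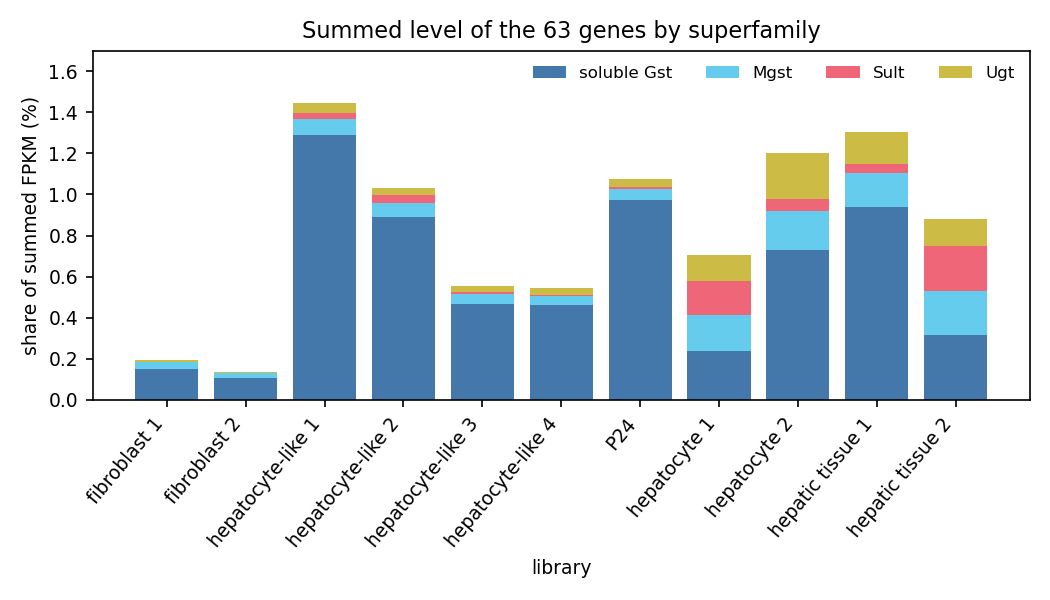
Share of all FPKM in each library (y axis, %) taken by the 63 genes, stacked by superfamily, for the 11 libraries (x axis). Soluble Gst genes make up most of the hepatocyte-like bars and of the P24 bar, and Ugt and Sult genes take larger shares in the hepatocyte and tissue bars than in the others.

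Gsto1 led the hepatocyte-like cells with a mean of 1837 FPKM (SD 1084, n = 4), followed by Gstp1, Gsta4, Gstm1 and Gsta1, and these 5 made up 72% of the summed mean level. By mean, Mgst1 led the hepatocytes and Gstp1 the tissue and the fibroblasts, but within liver the lead followed the library: Gstp1 was above Mgst1 in hepatocyte 2 and tissue 1 and below it in hepatocyte 1 and tissue 2. A mean of at least 1 FPKM was reached by 43 of the 63 genes in hepatocyte-like cells, 48 in hepatocytes, 48 in tissue, 24 in fibroblasts and 41 in P24. Over all genes the corresponding shares were 27.6, 22, 21.9, 27.9 and 28%. The 43 genes with a mean of at least 10 FPKM in any of these 5 groups are given below in every library.

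**Figure D2:**
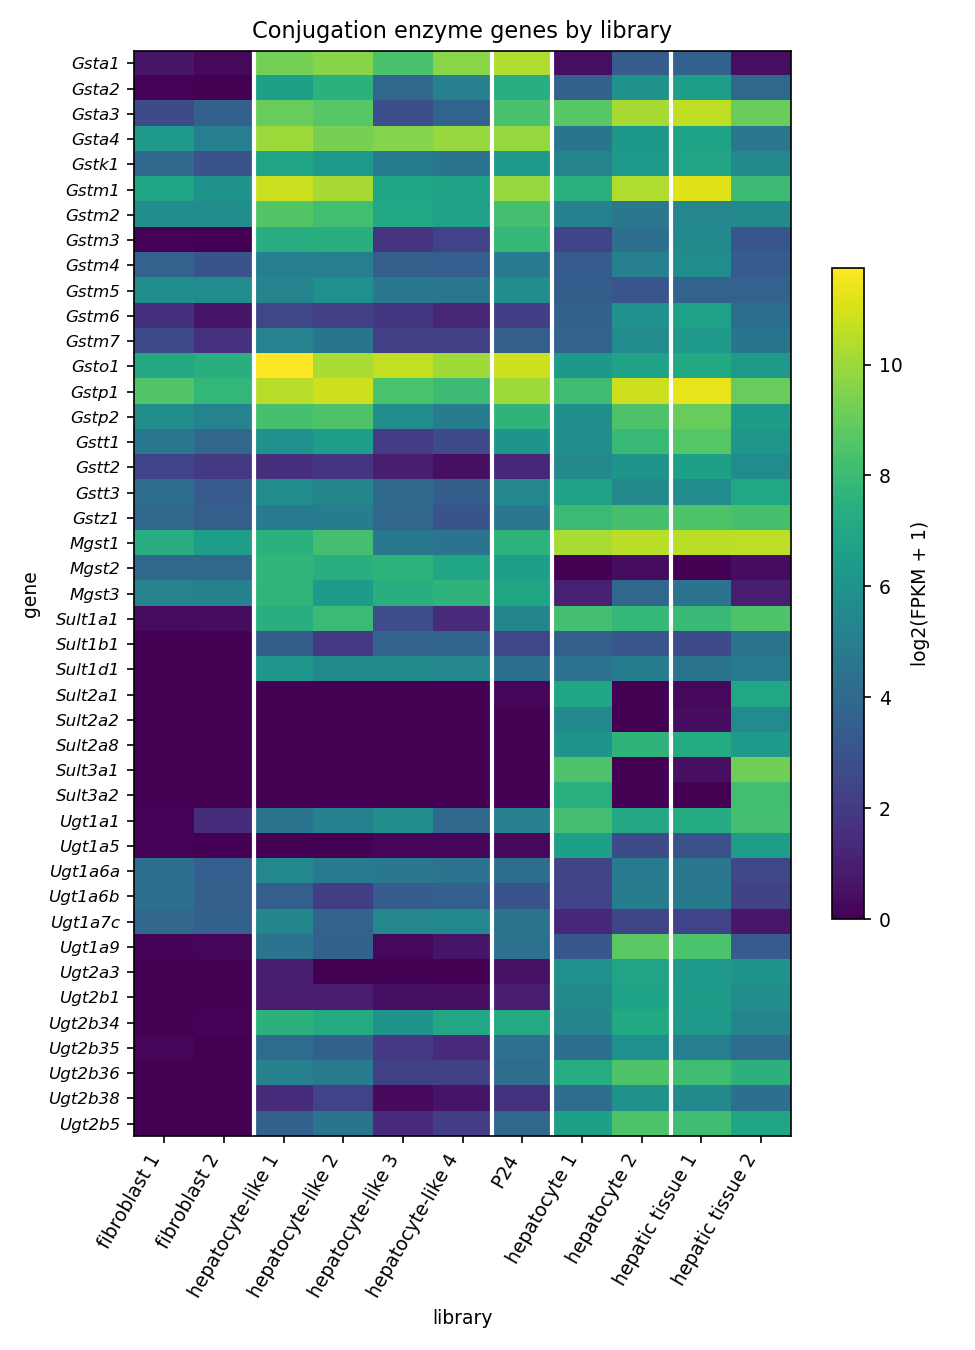
Levels of the 43 genes with a mean of at least 10 FPKM in any group (rows) in the 11 libraries (columns), as log2(FPKM + 1). Gsta1, Gsta4, Gsto1, Mgst2 and Mgst3 are bright in all 4 hepatocyte-like columns and in P24, the Sult2a and Sult3a rows are dark outside liver, and Gsta3, Gstm3 and Sult1a1 change between hepatocyte-like 2 and 3.

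The 3 comparisons of hepatocyte-like cells asked how near these had come to liver and how far they had moved from fibroblasts. A gene was called where its difference in log2(FPKM + 1) was at least 1 in size with a limma adjusted p under 0.05, Benjamini-Hochberg adjusted over the 15657 genes with at least 1 FPKM in at least 2 of 10 libraries. Of the 63 members, 55 passed that filter, some of them only through the group where they were high. Among those called against liver, these were Sult2a8, Sult2b1, Ugt1a5, Ugt2a3 and Ugt2b1. Against fibroblasts 13 members were higher and 0 lower, where 11.4% of all genes tested were called higher and 15% lower, and the median difference was 0.90 over the members and 0.08 over all genes. Unadjusted p was under 0.05 for 17 of the 55 members and for 6132 of the 15657 genes in that comparison. Within the flow cell that holds both fibroblast libraries and hepatocyte-like 3 and 4, where 35 members passed the filter, the counts were 17 higher and 4 lower, and 13.9% of all genes tested in that fit were called higher and 14.9% lower. Against hepatocytes 10 were higher and 13 lower, where the background was 41.3% higher and 7.54% lower, with medians of -0.93 and 0.94. Against tissue the same 10 were higher and 12 of the same 13 lower, with Ugt2b35 the exception, and the background was 42.3% higher and 7.94% lower. The share of members called higher than in liver was below the background and the share called lower was above it. These counts include the genes named above that passed the filter only through the group where they were high. The shares are therefore a description, and no conclusion is drawn from them. The background depends on the scaling. With median-ratio scaling, which moved the median over all genes from 0.94 to 0.03 against hepatocytes, the share of calls that were higher went from 84.6 to 50.8%, and from 84.2 to 47.3% against tissue. Under that scaling 6 members were higher and 17 lower than in hepatocytes and 6 higher and 21 lower than in tissue, with Gstm2, Gstm5, Gsto2 and Sult2b1 no longer higher in either. The background was then 15.6% higher and 15.2% lower against hepatocytes and 15.3 and 17.1% against tissue. Without a test, all 4 hepatocyte-like libraries lay above all 4 liver libraries for 12 members, where 47.4% of genes did, and below all 4 for 13, where 8.62% did. They lay above both fibroblast libraries for 22 members, where 25.8% of genes did, and below both for Gstt2 alone, where 24.1% did. For hepatocytes against tissue, limma called 0 of 55 members, and 0 had an unadjusted p under 0.05, where 0.00639% of all genes were called (1 gene) and 334 had an unadjusted p under 0.05. That fit takes the libraries as unpaired, so the split within liver described below enters its spread, and the missing calls do not show that levels were alike.

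**Figure D3:**
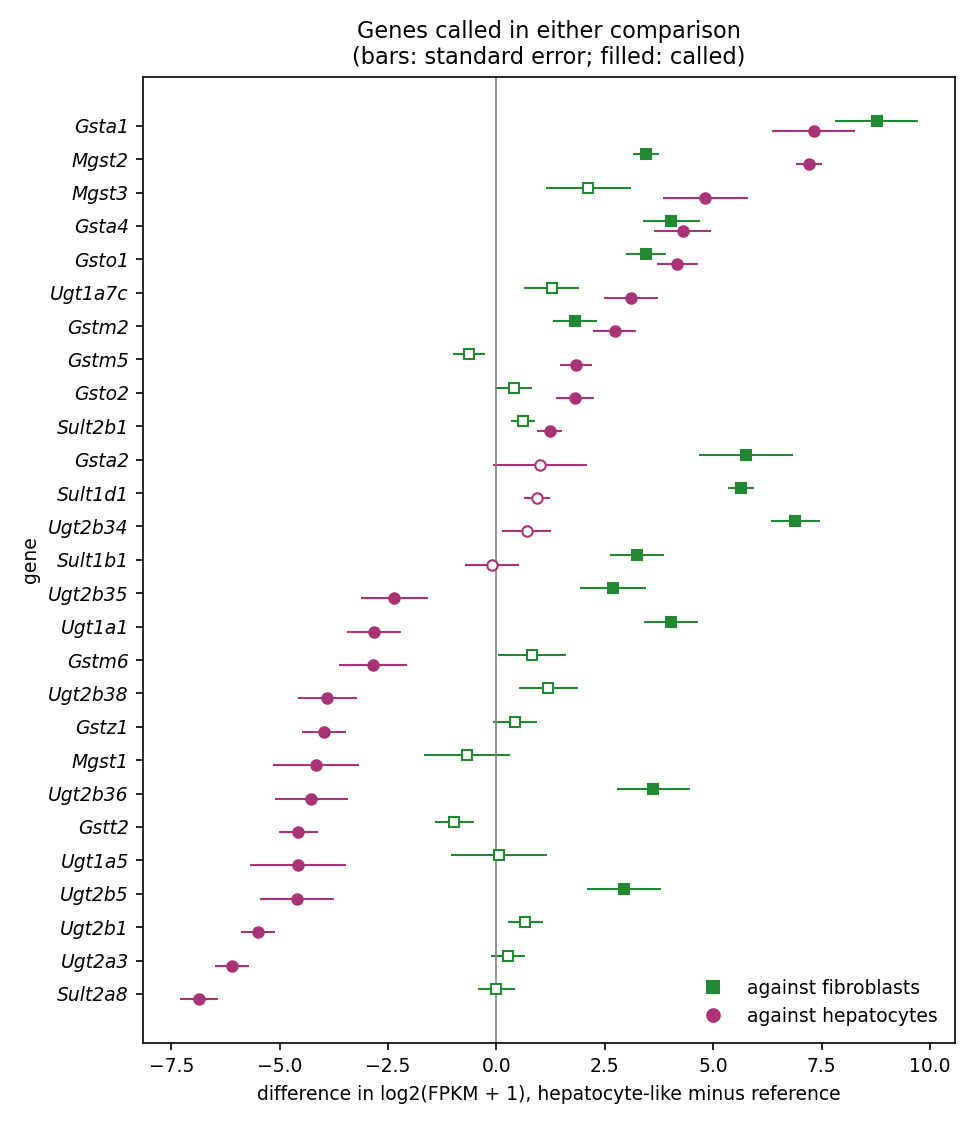
Difference in log2(FPKM + 1) between hepatocyte-like cells and fibroblasts (squares) or hepatocytes (circles) for each gene called in either comparison, with the standard error as bars and filled symbols for calls (27 genes). The Ugt2b genes and Ugt1a1 lie to the right against fibroblasts and, except for Ugt2b34, to the left against hepatocytes.

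Ugt2 genes, which conjugate steroids, bile acids and drugs, were partly present in the hepatocyte-like cells and mostly lower there than in liver. Of the 10 genes 8 were tested, 4 were higher than in fibroblasts, and 6 were lower than in hepatocytes, with 0 called in the other direction in either comparison. Over all genes 11.4% were higher and 15% lower than in fibroblasts, and 41.3% higher and 7.54% lower than in hepatocytes. Ugt2b34 (chr5:86889767-86906937, minus strand) was the most abundant one in the hepatocyte-like cells. Ugt2b34 measured 185, 142, 64.7 and 131 FPKM in hepatocyte-like 1 to 4, 39.8 and 140.2 in the hepatocyte libraries, 81 and 39 in the tissue libraries, 0 and 0.0776 in the fibroblast libraries and 143 in P24. Its hepatocyte-like values reached those of liver and overlapped them, and differed from fibroblasts by 6.89 (SE 0.56, adjusted p = 2.77e-05). The difference from hepatocytes was 0.70 (SE 0.56, adjusted p = 0.317) and was not called. Ugt2b36 had levels of 33.6, 26.9, 3.64 and 4.03 FPKM in hepatocyte-like 1 to 4, 152 and 366 in the hepatocyte libraries, 278 and 188 in the tissue libraries, a listed 0 in both fibroblast libraries and 17.4 in P24. Ugt2b5 read 11.6, 22.5, 1.69 and 3.36 FPKM in hepatocyte-like 1 to 4, 97.4 and 348 in the hepatocyte libraries, 281 and 118 in the tissue libraries, a listed 0 in both fibroblast libraries and 14 in P24. Ugt2b35 was at 16.1, 11, 2.90 and 1.68 FPKM in hepatocyte-like 1 to 4, 19 and 59.1 in the hepatocyte libraries, 31.8 and 17.6 in the tissue libraries, 0.115 and 0 in the fibroblast libraries and 20.7 in P24. These 3 stood between fibroblasts and liver, with hepatocyte-like 1 and 2 above 3 and 4. All 3 were called higher than in fibroblasts, with adjusted p = 0.0109 for Ugt2b36 and 0.0307 for Ugt2b5, which rest on listed zeros there, and a difference of 2.69 (SE 0.76, adjusted p = 0.0272) for Ugt2b35. Each of these 3 calls was lost without either fibroblast library, with adjusted p = 0.0825 and 0.0856 for Ugt2b36, 0.158 and 0.166 for Ugt2b5 and 0.136 and 0.167 for Ugt2b35. The call of Ugt2b5 was also lost without hepatocyte-like 1 (adjusted p = 0.0693) and that of Ugt2b35 without hepatocyte-like 2 (adjusted p = 0.0541). Against hepatocytes the difference was -4.27 (SE 0.84, adjusted p = 0.00255) for Ugt2b36 and -4.59 (SE 0.86, adjusted p = 0.00191) for Ugt2b5. For Ugt2b35 it was -2.35 (SE 0.76, adjusted p = 0.0275), a call lost without hepatocyte 2 (adjusted p = 0.218) or without hepatocyte-like 3 (adjusted p = 0.0606). Ugt2b38 measured 1.79, 4.13, 0.220 and 0.590 FPKM in hepatocyte-like 1 to 4, 17.1 and 63.8 in the hepatocyte libraries, 45.7 and 19.3 in the tissue libraries, a listed 0 in both fibroblast libraries and 2.34 in P24. Ugt2b1 had levels of 0.861, 0.910, 0.388 and 0.392 FPKM in hepatocyte-like 1 to 4, 45.8 and 113 in the hepatocyte libraries, 88.4 and 56.9 in the tissue libraries, 0.0384 and 0 in the fibroblast libraries and 0.920 in P24. Ugt2a3 read 0.957, 0, 0.0484 and 0 FPKM in hepatocyte-like 1 to 4, 57.7 and 115 in the hepatocyte libraries, 80.3 and 66.7 in the tissue libraries, a listed 0 in both fibroblast libraries and 0.451 in P24. The last 2 were below 1 FPKM in every hepatocyte-like library, and all 3 were lower in each of these than in each liver library. Against hepatocytes the difference was -3.90 (SE 0.68, adjusted p = 0.00133) for Ugt2b38. It was -5.49 (SE 0.39) for Ugt2b1 and -6.11 (SE 0.39) for Ugt2a3. Ugt2b1 and Ugt2a3 passed the filter only through liver, so no p is given for them.

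Among the Ugt1 genes, Ugt1a7c had the highest mean level in hepatocyte-like cells, overlapping Ugt1a1 there, and Ugt1a1 had the highest mean in hepatocytes and tissue, within the limits set by their shared exons. In hepatocyte 2 and tissue 1 the order was reversed, with Ugt1a9 above Ugt1a1. Of the 9 genes tested, Ugt1a1 alone was higher than in fibroblasts, Ugt1a7c was higher than in hepatocytes, and Ugt1a1 and Ugt1a5 were lower. The shares over all genes were 11.4% higher than in fibroblasts, and 41.3% higher and 7.54% lower than in hepatocytes. Ugt1a1 (chr1:88211959-88218997, plus strand) makes the enzyme that conjugates bilirubin. Ugt1a1 was at 21.6, 35.1, 55 and 13.9 FPKM in hepatocyte-like 1 to 4, 303 and 136 in the hepatocyte libraries, 149.8 and 300.4 in the tissue libraries, 0.0661 and 1.90 in the fibroblast libraries and 33.7 in P24. Every hepatocyte-like value lay above both fibroblast values and below all 4 liver values, with differences of 4.03 (SE 0.62, adjusted p = 0.00118) and -2.83 (SE 0.62, adjusted p = 0.00447). The call against hepatocytes was lost without hepatocyte 1 (adjusted p = 0.0583). Ugt1a7c measured 41.2, 12.2, 42.2 and 43.1 FPKM in hepatocyte-like 1 to 4, 1.54 and 4.48 in the hepatocyte libraries, 4.19 and 0.680 in the tissue libraries, 13.6 and 11.1 in the fibroblast libraries and 21.9 in P24. The hepatocyte-like values were above all liver values, by 3.10 (SE 0.62, adjusted p = 0.00284) against hepatocytes, and hepatocyte-like 2 was near the fibroblasts. Ugt1a5 had levels of 1.73e-13, 4.42e-67, 0.147 and 0.155 FPKM in hepatocyte-like 1 to 4, 98.8 and 5.63 in the hepatocyte libraries, 6.63 and 95.7 in the tissue libraries, 0.0729 and 2.99e-32 in the fibroblast libraries and 0.203 in P24. It was near 0 outside liver and passed the filter only through liver, so no p is given for it. The differences were -4.58 (SE 1.11) from hepatocytes and -4.66 (SE 1.11) from tissue. The first call was lost without hepatocyte 1 and the second without tissue 2. Values as small as that of hepatocyte-like 2 are estimates, not reads. Ugt1a9 read 21.5, 11.7, 0.181 and 0.579 FPKM in hepatocyte-like 1 to 4, 8.33 and 421 in the hepatocyte libraries, 339.7 and 9.37 in the tissue libraries, 0.0935 and 0.132 in the fibroblast libraries and 20.2 in P24. Both the hepatocyte-like and the liver libraries split widely. The differences of 2.11 (SE 1.85, adjusted p = 0.438) against fibroblasts and -3.71 (SE 1.85, adjusted p = 0.12) against hepatocytes were not called. Ugt1a6a was at 44.3, 26.4, 25.1 and 21.4 FPKM in hepatocyte-like 1 to 4, 4.24 and 29 in the hepatocyte libraries, 24.1 and 4.75 in the tissue libraries, 18.2 and 10.2 in the fibroblast libraries and 18.1 in P24. Ugt1a6b measured 10.9, 3.58, 9.52 and 11 FPKM in hepatocyte-like 1 to 4, 4.20 and 30.1 in the hepatocyte libraries, 26 and 3.79 in the tissue libraries, 18.8 and 10.9 in the fibroblast libraries and 7.24 in P24. This near-identical pair, known for conjugating phenols, overlapped between hepatocyte-like cells, liver and, for Ugt1a6b, fibroblasts, with 0 calls.

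Alpha-class glutathione transferases, which detoxify products of lipid peroxidation and foreign electrophiles, included the largest differences among the members called, those of Gsta1. Of the 4 Gsta genes 3 were higher than in fibroblasts and 2 higher than in hepatocytes, and 0 were lower. Over all genes 11.4% were higher and 15% lower than in fibroblasts, and 41.3% higher and 7.54% lower than in hepatocytes. The count of 2 of 4 against hepatocytes is near that share. Gsta1 (chr9:78230656-78242684, plus strand) is known in mouse as a gene with little RNA in untreated liver. Gsta1 had levels of 633, 785, 334 and 808 FPKM in hepatocyte-like 1 to 4, 0.355 and 9.71 in the hepatocyte libraries, 11.3 and 0.372 in the tissue libraries, 0.641 and 0.179 in the fibroblast libraries and 1298 in P24. All 4 hepatocyte-like values stood far above every liver and fibroblast value, by 8.77 (SE 0.95, adjusted p = 1.57e-04) against fibroblasts, 7.31 (SE 0.95, adjusted p = 2.74e-04) against hepatocytes and 7.20 (SE 0.95, adjusted p = 3.01e-04) against tissue. Gsta4 (chr9:78182774-78209349, plus strand) encodes the enzyme that conjugates 4-hydroxynonenal. Gsta4 read 1053, 646, 762 and 966 FPKM in hepatocyte-like 1 to 4, 22.9 and 75.4 in the hepatocyte libraries, 113 and 23.9 in the tissue libraries, 77.2 and 32.8 in the fibroblast libraries and 942 in P24. The hepatocyte-like libraries again did not overlap any other group of the table, and the differences were 4.03 (SE 0.66, adjusted p = 0.00162) against fibroblasts and 4.30 (SE 0.66, adjusted p = 6.57e-04) against hepatocytes. Gsta2 was at 96.5, 188, 14.9 and 33.3 FPKM in hepatocyte-like 1 to 4, 11.1 and 64.2 in the hepatocyte libraries, 95.4 and 14.1 in the tissue libraries, 0.0918 and 0 in the fibroblast libraries and 165 in P24. Gsta2 was higher than in fibroblasts by 5.75 (SE 1.09, adjusted p = 0.00368), and its values overlapped those of liver. Gsta3 measured 514, 416, 6.10 and 12.6 FPKM in hepatocyte-like 1 to 4, 410.5 and 1178 in the hepatocyte libraries, 1581 and 532 in the tissue libraries, 5.36 and 11 in the fibroblast libraries and 334 in P24. Gsta3, known for conjugating aflatoxin epoxide in mouse, had liver-like values in hepatocyte-like 1 and 2 and fibroblast-like values in 3 and 4. Neither 2.95 (SE 1.68, adjusted p = 0.227) against fibroblasts nor -3.37 (SE 1.68, adjusted p = 0.12) against hepatocytes was called.

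Mu-class genes on chromosome 3 mostly followed the split between hepatocyte-like libraries. Gstm2 alone of 7 was higher than in fibroblasts, and against hepatocytes Gstm2 and Gstm5 were higher and Gstm6 lower. The shares over all genes were 11.4% higher than in fibroblasts, and 41.3% higher and 7.54% lower than in hepatocytes. Gstm2 had levels of 389, 288, 128 and 103 FPKM in hepatocyte-like 1 to 4, 34.3 and 24.2 in the hepatocyte libraries, 42.3 and 45.9 in the tissue libraries, 57 and 53.9 in the fibroblast libraries and 312 in P24. The hepatocyte-like values were above all others of the table, by 1.81 (SE 0.50, adjusted p = 0.0247) against fibroblasts and 2.73 (SE 0.50, adjusted p = 0.00177) against hepatocytes. The first call was lost without either fibroblast library (adjusted p = 0.14 and 0.165) and the second with median-ratio scaling (adjusted p = 0.0611). Gstm5 read 37.6, 59.4, 24.7 and 23.7 FPKM in hepatocyte-like 1 to 4, 9.90 and 7.73 in the hepatocyte libraries, 12.3 and 11.8 in the tissue libraries, 55.2 and 50.2 in the fibroblast libraries and 54.6 in P24. Its level was near that of fibroblasts and higher than in hepatocytes by 1.84 (SE 0.37, adjusted p = 0.00285), a call lost with median-ratio scaling (adjusted p = 0.257), and the call against tissue was lost without tissue 2 (adjusted p = 0.0589). Gstm6 was at 4.62, 3.64, 2.62 and 1.39 FPKM in hepatocyte-like 1 to 4, 11.7 and 60.02 in the hepatocyte libraries, 105 and 17.8 in the tissue libraries, 1.99 and 0.612 in the fibroblast libraries and 3.58 in P24. The difference from hepatocytes was -2.84 (SE 0.79, adjusted p = 0.0138), a call lost without hepatocyte 2 (adjusted p = 0.152), and the call against tissue was lost without tissue 1 (adjusted p = 0.0576). Gstm1, the main mu-class gene of mouse liver, spanned the whole range from fibroblast to liver levels within the hepatocyte-like group. Gstm1 measured 1784, 1163, 119 and 106 FPKM in hepatocyte-like 1 to 4, 175 and 1295 in the hepatocyte libraries, 2281 and 263 in the tissue libraries, 118 and 61.4 in the fibroblast libraries and 967 in P24. Gstm3 had levels of 158, 162, 2.40 and 4.20 FPKM in hepatocyte-like 1 to 4, 4.20 and 18.5 in the hepatocyte libraries, 47.1 and 7.74 in the tissue libraries, 0.0850 and 0 in the fibroblast libraries and 223 in P24. Gstm7 read 35.4, 22.8, 3.70 and 3.64 FPKM in hepatocyte-like 1 to 4, 12.5 and 49.97 in the hepatocyte libraries, 79.6 and 22.8 in the tissue libraries, 5.19 and 2.23 in the fibroblast libraries and 10.9 in P24. In each of these 3 the first 2 hepatocyte-like libraries stood at or above hepatocyte 1, and the others were far lower. Gstm4 was at 32.5, 31.3, 10.8 and 10.3 FPKM in hepatocyte-like 1 to 4, 9.72 and 34.1 in the hepatocyte libraries, 52.2 and 9.77 in the tissue libraries, 12 and 7.35 in the fibroblast libraries and 27.6 in P24. None of these 4 was called in any comparison, and their differences from hepatocytes ranged from -1.16 for Gstm7 to 1.37 for Gstm3.

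Among the other soluble classes, Gsto1 was higher than in fibroblasts and liver, and Gstt2 and Gstz1 were lower than in liver. Gsto1 (chr19:47854970-47864790, plus strand) reduces dehydroascorbate and methylated arsenic. Gsto1 measured 3428, 1233, 1614 and 1074 FPKM in hepatocyte-like 1 to 4, 75.8 and 108 in the hepatocyte libraries, 139 and 79.1 in the tissue libraries, 137 and 164 in the fibroblast libraries and 1867 in P24. Every hepatocyte-like value was above every fibroblast and liver value, by 3.45 (SE 0.47, adjusted p = 5.51e-04) against fibroblasts and 4.17 (SE 0.47, adjusted p = 1.18e-04) against hepatocytes. Its neighbour Gsto2 ran from 1.86 to 7.03 FPKM in hepatocyte-like cells and from 0.114 to 0.890 in liver and was called higher than in both liver groups. Gstp1 had levels of 1425, 1820.1, 339 and 261 FPKM in hepatocyte-like 1 to 4, 271 and 1853 in the hepatocyte libraries, 2611 and 509 in the tissue libraries, 379.7 and 217 in the fibroblast libraries and 1054 in P24. Gstp2 read 318, 351, 52.6 and 29.9 FPKM in hepatocyte-like 1 to 4, 57 and 351 in the hepatocyte libraries, 518 and 85.8 in the tissue libraries, 54.6 and 36.7 in the fibroblast libraries and 200.2 in P24. For the pi-class pair the hepatocyte-like range overlapped each of the other 3 groups, and 0 calls were made. Gstz1 was at 28.2, 30.6, 13.6 and 6.92 FPKM in hepatocyte-like 1 to 4, 254 and 318 in the hepatocyte libraries, 367 and 323 in the tissue libraries, 14.2 and 10.9 in the fibroblast libraries and 24.3 in P24. Gstz1 isomerises maleylacetoacetate in tyrosine breakdown, and it was lower in hepatocyte-like cells than in hepatocytes, with a difference of -3.98 (SE 0.51, adjusted p = 2.64e-04) and with fibroblast and hepatocyte-like values overlapping. Gstt2 measured 2.06, 2.54, 0.972 and 0.407 FPKM in hepatocyte-like 1 to 4, 44.9 and 66 in the hepatocyte libraries, 97.8 and 49 in the tissue libraries, 4.18 and 3.04 in the fibroblast libraries and 1.51 in P24. Gstt2 was lower than in hepatocytes, with a difference of -4.57 (SE 0.45, adjusted p = 5.36e-05), and lay below the fibroblasts in all 4 hepatocyte-like libraries, where the difference of -0.97 (SE 0.45, adjusted p = 0.141) was not called. Gstt1 had levels of 60.8, 91.9, 3.23 and 5.38 FPKM in hepatocyte-like 1 to 4, 57.4 and 245 in the hepatocyte libraries, 399 and 73.1 in the tissue libraries, 24.8 and 13.8 in the fibroblast libraries and 65.7 in P24. Gstt3 read 49.5, 39.1, 15.6 and 10.2 FPKM in hepatocyte-like 1 to 4, 108 and 44.8 in the hepatocyte libraries, 50.2 and 131 in the tissue libraries, 16.9 and 9.47 in the fibroblast libraries and 42.7 in P24. Gstk1 was at 116, 78, 29.1 and 21.6 FPKM in hepatocyte-like 1 to 4, 37.5 and 80.5 in the hepatocyte libraries, 114 and 46.3 in the tissue libraries, 15.4 and 6.96 in the fibroblast libraries and 80.4 in P24. These 3 (Gstk1 being a mitochondrial and peroxisomal enzyme) were higher in hepatocyte-like 1 and 2 than in 3 and 4 and were not called in any comparison. Within the flow cell that holds fibroblasts and hepatocyte-like 3 and 4, Gstt1 was lower in the hepatocyte-like libraries, with a difference of -1.91 (adjusted p = 0.0258), whereas the difference with all libraries was 0.02 (SE 1.31, adjusted p = 1).

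Microsomal transferases separated in opposite directions. Mgst1 measured 179, 309, 24.9 and 21.4 FPKM in hepatocyte-like 1 to 4, 1217 and 1478 in the hepatocyte libraries, 1488 and 1538 in the tissue libraries, 157 and 90.8 in the fibroblast libraries and 190.1 in P24. Mgst1, the abundant liver enzyme of this class, was lower in the hepatocyte-like cells than in hepatocytes, with a difference of -4.15 (SE 0.99, adjusted p = 0.0067), and against fibroblasts hepatocyte-like 1 and 2 were above and 3 and 4 below, with a difference of -0.67 (SE 0.99, adjusted p = 0.661) that was not called. Mgst2 had levels of 211, 166, 191 and 117 FPKM in hepatocyte-like 1 to 4, 0 and 0.295 in the hepatocyte libraries, 0 and 0.323 in the tissue libraries, 14.8 and 14.1 in the fibroblast libraries and 96 in P24. Mgst3 read 204, 88.1, 166 and 201 FPKM in hepatocyte-like 1 to 4, 1.05 and 14.2 in the hepatocyte libraries, 21.5 and 0.966 in the tissue libraries, 35.6 and 34.8 in the fibroblast libraries and 118 in P24. Both of these, which have leukotriene C4 synthase activity, were higher in all 4 hepatocyte-like libraries than in every fibroblast and liver library. For Mgst2 (chr3:51660360-51682677, plus strand) the difference was 3.45 (SE 0.31, adjusted p = 4.55e-05) against fibroblasts and 7.21 (SE 0.31, adjusted p = 5.38e-07) against hepatocytes. For Mgst3 it was 4.82 (SE 0.98, adjusted p = 0.003) against hepatocytes, and 2.12 (SE 0.98, adjusted p = 0.142) against fibroblasts, which was not called.

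Among the cytosolic sulfotransferases, Sult1b1 and Sult1d1 were higher in the hepatocyte-like cells than in fibroblasts, and all tested Sult2a and Sult3a genes are listed at 0 in the hepatocyte-like libraries. Of 5 tested Sult1 genes 2 were higher than in fibroblasts, and 0 were called against hepatocytes. The shares over all genes were 11.4% higher than in fibroblasts, and 41.3% higher and 7.54% lower than in hepatocytes. Sult1d1 (chr5:87554645-87569027, minus strand) sulfates catecholamines in mouse. Sult1d1 was at 70.8, 44.7, 45.3 and 42.8 FPKM in hepatocyte-like 1 to 4, 21.3 and 31 in the hepatocyte libraries, 22 and 28.6 in the tissue libraries, 0.0412 and 0 in the fibroblast libraries and 17.8 in P24. The hepatocyte-like values were above all other values of the table, by 5.64 (SE 0.30, adjusted p = 2.67e-06) against fibroblasts, and the difference of 0.93 (SE 0.30, adjusted p = 0.0271) against hepatocytes was not called. Sult1b1 measured 10.1, 2.95, 12 and 13.3 FPKM in hepatocyte-like 1 to 4, 10.6 and 7.90 in the hepatocyte libraries, 5.33 and 22 in the tissue libraries, a listed 0 in both fibroblast libraries and 4.59 in P24. Sult1b1, which acts on thyroid hormone, was higher than in fibroblasts, where it is listed at 0 in both libraries, with an adjusted p of 0.00383 that rests on those listed zeros, and overlapped liver. Sult1a1 had levels of 162, 256, 5.90 and 1.65 FPKM in hepatocyte-like 1 to 4, 301 and 225 in the hepatocyte libraries, 251 and 367 in the tissue libraries, 0.262 and 0.305 in the fibroblast libraries and 40.7 in P24. Sult1a1, the main phenol sulfotransferase, was within the liver range in hepatocyte-like 2, somewhat below it in 1 and far below it in 3 and 4, and the differences of 4.53 (SE 1.64, adjusted p = 0.0692) and -3.14 (SE 1.64, adjusted p = 0.136) were not called. Sult2a8 had a listed 0 in all of hepatocyte-like 1 to 4, 66.9 and 198 in the hepatocyte libraries, 148 and 80.8 in the tissue libraries, a listed 0 in both fibroblast libraries and a listed 0 in P24. Sult2a8, which sulfates bile acids in mouse liver, was the one Sult2a gene present in all 4 liver libraries at 10 FPKM or more, and it is listed at 0 in all hepatocyte-like and fibroblast libraries. It passed the filter only through liver and its call as lower rests on listed zeros, so no p is given for it. Sult2a1 had a listed 0 in all of hepatocyte-like 1 to 4, 120.1 and 0 in the hepatocyte libraries, 0.196 and 130.3 in the tissue libraries, a listed 0 in both fibroblast libraries and 0.101 in P24. Sult2a2 had a listed 0 in all of hepatocyte-like 1 to 4, 47.6 and 0 in the hepatocyte libraries, 0.304 and 50.4 in the tissue libraries, a listed 0 in both fibroblast libraries and a listed 0 in P24. Both Sult2a genes, known for sulfating steroids and bile acids, were high in hepatocyte 1 and tissue 2 and near or at 0 in the other liver libraries. Sult3a1 had a listed 0 in all of hepatocyte-like 1 to 4, 351 and 0 in the hepatocyte libraries, 0.378 and 584 in the tissue libraries, a listed 0 in both fibroblast libraries and a listed 0 in P24. Sult3a2 had a listed 0 in all of hepatocyte-like 1 to 4, 174 and 0 in the hepatocyte libraries, 0 and 294 in the tissue libraries, a listed 0 in both fibroblast libraries and a listed 0 in P24. The Sult3a pair, of which Sult3a1 sulfates amines, followed the same order. These 4 were listed at 0 in every hepatocyte-like and fibroblast library and were above 1 FPKM in 1 hepatocyte and 1 tissue library each. None was called with all libraries. They passed the filter only through the libraries where they are high, and calls of these genes gained by leaving out hepatocyte 2 or tissue 1, where they are at or near 0, follow from that removal and are not read as results.

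The remaining 20 members were low. Sult1c1, Sult2a4, Ugt2a1 and Ugt2a2 were listed at 0 in all 11 libraries, and Gstt4, Sult2a3, Sult2a7 and Sult6b1 stayed below 1 FPKM. The other 12 (Gsto2, Sult1c2, Sult1e1, Sult2a5, Sult2a6, Sult2b1, Sult4a1, Sult6b2, Ugt1a2, Ugt1a8, Ugt1a10 and Ugt2b37) reached 1 FPKM in at least 1 library, with a highest value of 15.5 FPKM for Sult2a5 in tissue 2. Among them Gsto2 and Sult2b1, which sulfates cholesterol, were called, both higher than in hepatocytes and tissue. Sult2b1 ran from 0.579 to 2.05 FPKM in hepatocyte-like cells and was listed at 0 in all 4 liver libraries. It was below 1 FPKM in both fibroblast libraries. Sult2b1 therefore passed the filter only through the hepatocyte-like libraries, and its calls as higher rest on listed zeros.

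Hepatocyte-like 1 and 2 differed from 3 and 4 for many of these enzymes. In 23 of the 55 tested members both of the first 2 libraries were over 2-fold above both of the others, a pattern held by 4.82% of all genes tested, and in 2 members (Ugt1a5 and Ugt1a8) the order was the reverse, a pattern held by 9.57% of genes. The 23 were Gsta2, Gsta3, Gstk1, Gstm1, Gstm2, Gstm3, Gstm4, Gstm7, Gstp1, Gstp2, Gstt1, Gstt2, Gstt3, Gstz1, Mgst1, Sult1a1, Sult1c2, Ugt1a9, Ugt2b1, Ugt2b35, Ugt2b36, Ugt2b38 and Ugt2b5. Gsta1, Gsta4, Gsto1, Mgst2, Mgst3, Sult1d1, Ugt1a7c and Ugt2b34 were not among them. Flow cell, as named in the titles, moves with this split, and so do the hepatocyte markers Alb (1899 and 4514 against 58.5 and 266 FPKM) and Cyp3a11 (169 and 613 against 1.03 and 0.326 FPKM), the endodermal Sox17 (67.4 and 28.9 against 295 and 166 FPKM), and the globin Hba-a1 (216 and 66.1 against 4.00 and 3.08 FPKM). Their part in the split was not tested. With hepatocyte-like 1 and 2 alone, 21 members were higher than in fibroblasts, the 13 and Gsta3, Gstk1, Gstm1, Gstm3, Gstm7, Gstz1, Sult1a1 and Sult1c2, where 16.3% of all genes were called higher. With 3 and 4 alone, 13 were higher, of which 11 were among the first 13, and Gstm5, Gstt2 and Mgst1 were lower, where 12.3% of all genes were called higher and 14.1% lower. Lower than in hepatocytes were then 20, adding Gsta3, Gstm7, Gstt1, Gstt3, Sult1a1, Sult1c2 and Ugt1a10, where 7.7% of all genes were called lower. These library pairs were chosen after seeing the data, and the genes gained with 1 and 2 alone are all among the 23. Calls gained with either pair alone therefore follow at least in part from that choice and are not read as results.

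P24 was set beside the hepatocyte-like libraries as a description only, across separately normalised tables. Its value lay within the range of the 4 hepatocyte-like libraries for 42 of the 55 tested members and for 60.4% of all genes tested. Ties at 0 count as within range in both. Such ties were Sult2a2, Sult2a5, Sult2a6, Sult2a8, Sult3a1 and Sult3a2, which say nothing on likeness. P24 was above the 4 libraries for 9 members and 25.9% of genes (Gsta1, Gstm3, Sult1c2, Sult2a1, Sult2b1, Ugt1a5, Ugt2b1, Ugt2b35 and Ugt2b37) and below for 4 members and 13.7% of genes (Gsto2, Mgst2, Sult1d1 and Ugt1a6a). Of those above, Sult2a1, Ugt1a5, Ugt2b1 and Ugt2b37 were below 1 FPKM in P24 and in all 4 libraries. Of the 23 genes high in hepatocyte-like 1 and 2, P24 was within 2-fold of the range of those libraries in 20, against 53.8% of the 755 genes of all with that split. Gsto1, Gsta1, Gstp1, Gstm1 and Gsta4 were its leading members, the same 5 as in the hepatocyte-like cells in another order.

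The 4 liver libraries paired across their labels. Tissue 2 and hepatocyte 1 were both over 2-fold above tissue 1 and hepatocyte 2 in 12 members (Gstt3, Sult1e1, Sult2a1, Sult2a2, Sult2a5, Sult2a6, Sult3a1, Sult3a2, Ugt1a1, Ugt1a2, Ugt1a5 and Ugt2b37), where 3.3% of all genes did so, and both over 2-fold below in 20, where 6.51% did. The 20 were Gsta1, Gsta2, Gsta3, Gsta4, Gstm1, Gstm3, Gstm4, Gstm6, Gstm7, Gstp1, Gstp2, Gstt1, Mgst3, Ugt1a6a, Ugt1a6b, Ugt1a7c, Ugt1a9, Ugt2b34, Ugt2b38 and Ugt2b5. By the labels, 0 members had both tissue libraries over 2-fold above or below both hepatocyte libraries, and 1.02% of genes did so in each direction. Smaller differences by label lie inside the pairing, as for Gstp1, Gstm1 and Gsta3, each higher in tissue 1 than in hepatocyte 2 and higher in tissue 2 than in hepatocyte 1, which was not tested. Xist, the RNA of the inactive X chromosome, was at 8.34 FPKM in tissue 2 and 40.7 in hepatocyte 1 and at 0.00583 in tissue 1 and 0.0243 in hepatocyte 2. The Y-linked Eif2s3y was at 22.8 FPKM in tissue 1 and 24.2 in hepatocyte 2, at 0.714 in hepatocyte 1 and listed at 0 in tissue 2. Sult2a1 and Sult3a1 are known to be higher in female and Gstp1 in male mouse liver. No label gives the sex of these libraries, and its part in the pairing was not tested. Alb moved with the same pairing, as given above. Blood and other liver cells did not follow it: Hbb-bs was at 435 and 4025 FPKM in tissue and 39.5 and 18.8 in hepatocytes, and Clec4f of Kupffer cells was at 95.4 and 51.1 FPKM in tissue 1 and 2, 77.5 in hepatocyte 1 and 4.60 in hepatocyte 2.

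**Figure D4:**
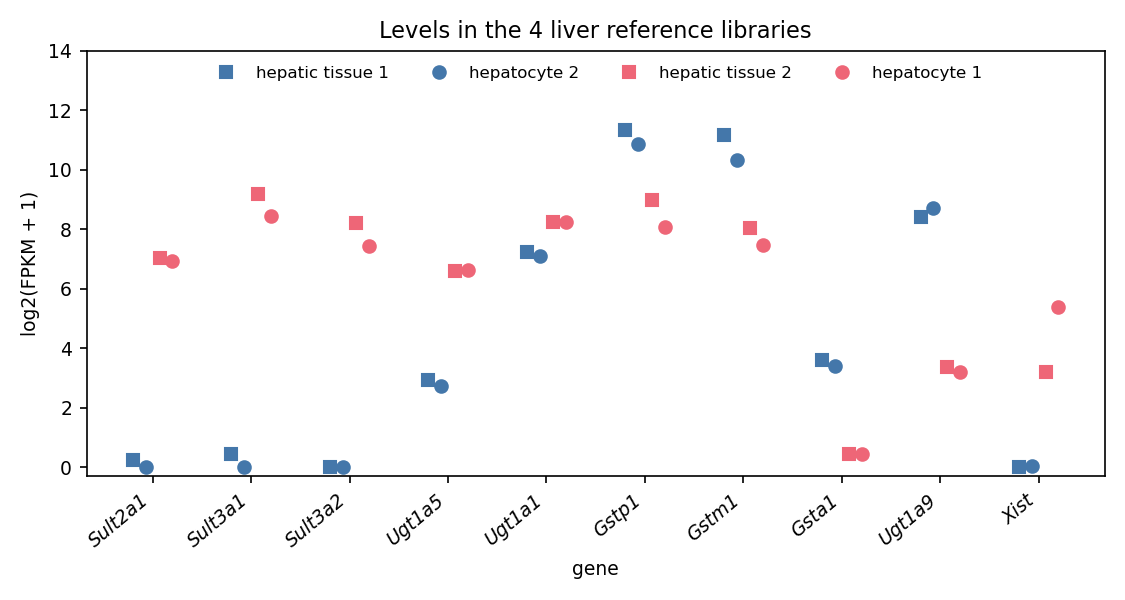
Level as log2(FPKM + 1) (y axis) of 9 conjugation genes and Xist (x axis) in the 4 liver libraries, with squares for tissue and circles for hepatocytes and 1 colour for each pair. Symbols of 1 colour lie together whatever their shape, with Sult2a1, Sult3a1, Sult3a2, Ugt1a5 and Ugt1a1 high in tissue 2 and hepatocyte 1 and Gstp1, Gstm1, Gsta1 and Ugt1a9 high in tissue 1 and hepatocyte 2.

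Genes that supply the co-substrates were counted from lists taken from pathway knowledge, to be read against the same background as the members: 11.4% of all genes higher and 15% lower than in fibroblasts, and 41.3% higher and 7.54% lower than in hepatocytes. The shares higher than in hepatocytes for glutathione, the sulfate donor and NRF2 targets were close to that background. Genes named from these and the following lists are those that differed most from hepatocytes, up to 4 a list, and are not typical of it. For glutathione synthesis and turnover, 1 of 8 was higher and 1 lower than in fibroblasts, and 3 were higher and 1 lower than in hepatocytes. Ggt1, which splits extracellular glutathione, was at 87.3, 62.6, 3.75 and 13.9 FPKM in hepatocyte-like cells and listed at 0 in all liver libraries, and its call as higher rests on those zeros. Oplah, 5-oxoprolinase, was lower than in hepatocytes, with a difference of -3.49 (SE 0.46, adjusted p = 2.97e-04). Slc7a11, the cystine importer, at 1.21 to 8.94 FPKM against a listed 0 in liver, and Gsr, glutathione reductase, by 1.33 (SE 0.46, adjusted p = 0.036), were higher. Of 4 genes for UDP-glucuronate, 1 was higher and 2 lower than in hepatocytes, and 1 higher and 1 lower than in fibroblasts. Ugdh, which makes UDP-glucuronate, was higher than in hepatocytes by 2.07 (SE 0.76, adjusted p = 0.044), and Gusb, the glucuronidase that reverses the reaction, and Slc35d1, the carrier into the endoplasmic reticulum, were lower, with differences of -3.35 (SE 0.61, adjusted p = 0.00159) and -1.41 (SE 0.36, adjusted p = 0.00953). Ugp2 differed by -0.01 (SE 0.68, adjusted p = 0.993). Of 7 genes for the sulfate donor, 3 were higher and 0 lower than in fibroblasts and 3 higher and 2 lower than in hepatocytes. The PAPS synthases went opposite ways against hepatocytes, with differences of 2.29 (SE 0.33, adjusted p = 4.91e-04) for Papss1 and -1.38 (SE 0.40, adjusted p = 0.0174) for Papss2. The difference was -4.84 (SE 0.75, adjusted p = 6.93e-04) for the sulfate carrier Slc26a1 and 1.72 (SE 0.34, adjusted p = 0.00249) for the PAPS carrier Slc35b3.

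Most of the other conjugating enzymes listed were lower than in liver. The background shares given for the co-substrate lists apply to all lists here too. Of 16 listed genes (methyl-, acetyl- and amino acid transferases and Ugt3a) 14 were tested, and 10 were lower and 0 higher than in hepatocytes, with 2 higher and 2 lower than in fibroblasts. Gnmt, the abundant glycine methyltransferase of liver, was at 0 to 4.07 FPKM in hepatocyte-like cells and 1323 and 2052 in hepatocytes, with a difference of -9.91 (SE 0.63, adjusted p = 5.38e-06). Ugt3a2 was listed at 0 in the hepatocyte-like cells and at 95.3 and 140 FPKM in hepatocytes, and no p is given for it. Acsm1 and Inmt were lower, with differences of -6.23 (SE 0.57, adjusted p = 3.87e-05) and -5.91 (SE 1.28, adjusted p = 0.00422). Among 11 regulators 1 was higher and 6 lower than in hepatocytes, and 3 higher and 1 lower than in fibroblasts. Nr1i3, the receptor CAR, was at 0 to 0.325 FPKM in the hepatocyte-like libraries and 80.6 and 113 in hepatocytes, with a difference of -6.45 (SE 0.32). That call rests on values near 0 in the hepatocyte-like libraries, so no p is given for it. Ppara, Cebpa and Rxra were lower, with differences of -4.37 (SE 0.35, adjusted p = 1.73e-05), -2.77 (SE 0.69, adjusted p = 0.00863) and -1.96 (SE 0.32, adjusted p = 9.64e-04). Of 9 NRF2 targets outside the member families, 3 were higher and 0 lower than in hepatocytes and 0 higher and 1 lower than in fibroblasts. G6pdx, Hmox1 and Slc7a11 were the 3, by 4.70 (SE 0.56, adjusted p = 1.63e-04) for G6pdx and 4.34 (SE 0.84, adjusted p = 0.00227) for Hmox1, and Nqo1 differed by 0.87 (SE 0.99, adjusted p = 0.478). Of 5 efflux pumps for conjugates 2 were higher and 1 lower than in hepatocytes and 0 higher and 2 lower than in fibroblasts. The canalicular Abcc2 was lower, with a difference of -3.44 (SE 0.87, adjusted p = 0.00908), the basolateral Abcc4 and Abcc1 were higher by 2.86 (SE 0.55, adjusted p = 0.00221) and 2.63 (SE 0.44, adjusted p = 0.00106), and Abcc3 differed by 0.95 (SE 1.34, adjusted p = 0.57).

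Levels before the hepatic step were read from the separate table of XEN-like cells, which lists 48 of the 63 members and is described without a test. It holds 2 fibroblast libraries, 8 XEN-like colonies, 3 libraries titled F25, 2 titled s39 and 1 of chemically derived eXEN cells. Gsta1 stayed at or below 0.643 FPKM in all 16 libraries, against at least 334 in the hepatocyte-like cells. Ugt2b34 was listed at 0 in fibroblasts and reached 5.00 FPKM at most in the XEN-like libraries. Gsta4 ran from 31.9 to 110 FPKM with a median of 67.5 over the colonies, and was at 67.7 and 62.5 in fibroblasts and 7.01 in eXEN cells. Gsto1 ran from 41.9 to 236 FPKM in the colonies, around a median of 89.9, and was at 113 and 421 in fibroblasts. Both genes overlapped fibroblasts in the colonies. Gstp1 ran from 82.1 to 192 FPKM in the colonies, with a median of 118, all below the 429 and 361 of fibroblasts. Mgst1 ran from 1.57 to 19 FPKM in the colonies, with a median of 2.18, and was at 161 and 97.9 in fibroblasts. The brain-enriched Sult4a1, which has no settled substrate, ran from 31.9 to 66 FPKM in the colonies with a median of 47.4, from 46.8 to 61.7 in the F25 and s39 libraries and was 66.1 in eXEN cells, against 5.82 and 5.84 in fibroblasts, so none of the XEN-like libraries overlapped the fibroblasts. In the hepatocyte-like cells it ran from 0.148 to 1.49 FPKM.

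**Figure D5:**
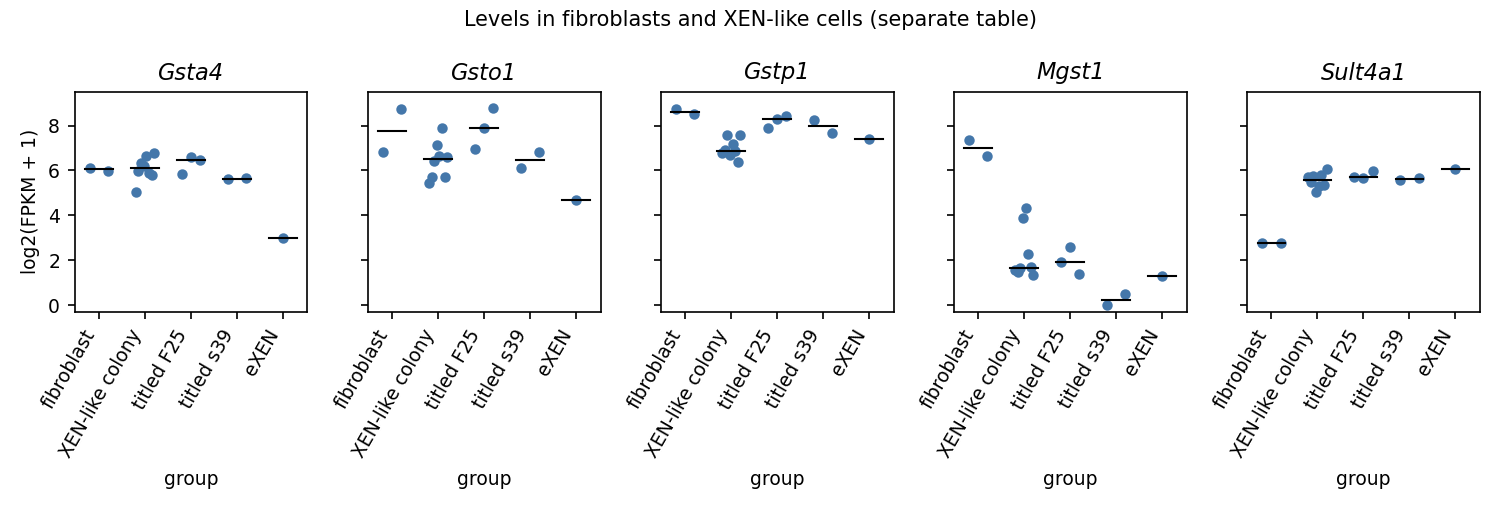
Levels of 5 genes as log2(FPKM + 1) (y axis) in the groups of the XEN-like table (x axis), with a point for each library and a line at the group median. Sult4a1 is higher and Mgst1 lower in all XEN-like and eXEN libraries than in both fibroblast libraries, and Gsta4 and Gsto1 overlap between fibroblasts and colonies.

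In the neuronal tables, which list 62 and 59 members, Sult4a1 was at 101 FPKM in brain, 36.9 and 0.721 in primary neurons of strain C57BL/6 and 43 and 27.7 in the TauEGFP-positive colonies. The second library of each of these pairs comes from the other, separately normalised table. In primary neurons Gstm1 also differed between the tables, at 39.3 FPKM in the first and 1374 in the second. The second library was lower in the summed level of 7 listed neuronal markers (77 against 989 FPKM). It was higher in 4 Kupffer cell or macrophage markers (432 against 17.4 FPKM, 2 of the 4 at 0 in each). It was also higher in 5 cholangiocyte markers (2026 against 51.2 FPKM, 2 of the 5 at 0 in the second). That list summed to 990 FPKM in the fibroblast library of the first table too, so it does not mark cholangiocytes alone. Blood cell markers were lower in the second library, at 12.2 FPKM over 3 listed genes, against 16244 over 5 in the first. Their part in the difference was not tested. Gsta1 was at 58 FPKM in the first TauEGFP-positive library and listed at 0 in the second, and Ugt1a7c at 81.8 and 7.42. In the neuronal cells induced with FICB, Ugt1a7c was at 104 FPKM and Gsta1 at 0.388, and the fibroblast library of that table had 13.3 and 6.21.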

How the data were processed

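Poly(A) RNA was sequenced from 34 libraries, of which the 10 of the hepatic table carried all tests. The deposited values are FPKM per the file headers of 1 neuronal table, and were taken as FPKM in the other tables, whose headers name no unit, because their library sums and ranges are alike. TopHat2 and the build mm10 are named, without a version, in the submitters' processing notes, and the program that made the FPKM is not given in the sources used here. FPKM divides by transcript length and library total, so a few very abundant transcripts lower all others. The tables were normalised separately, and tests stayed within the hepatic table.

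Columns were joined by gene ID to the groups in the labels. Limma 3.58.1 (R 4.3.3) was fitted to log2(FPKM + 1) with 1 coefficient for each of 4 groups, empirical Bayes with a variance trend, for 15657 genes with at least 1 FPKM in at least 2 libraries. Differences on this scale understate the change of low genes. All adjusted p-values are from this fit, Benjamini-Hochberg adjusted over all genes tested. Calls needed both an adjusted p under 0.05 and a difference of 1 or more in log2. Members came from the symbol rule. Members with a group mean of at least 10 FPKM are given in every library and the others by counts and ranges. From each pathway list up to 4 tested genes are named, those with the largest absolute difference between hepatocyte-like cells and hepatocytes. Their differences and p-values in that comparison are extremes by choice and do not stand for their lists. Members and lists were chosen with earlier results of these data known. Alternatives changed the pseudocount, filter, scaling, variance trend, samples fitted and libraries. Data of 15657 genes were also simulated with the same mean in all groups, the residual spread of these libraries and a small set of genes changed. There the fit recovered 76% of genes changed by a log2 of 2 between hepatocyte-like cells and fibroblasts. It recovered 46% for hepatocytes, 50% for tissue, and 38% between hepatocytes and tissue. Far more genes differed between hepatocyte-like cells and the other groups in the real data, which alters the adjustment. These rates are therefore not the power of the fits reported here. Promoters are from RefSeq (GRCm38.p6) and coding sequences and gene coordinates from GENCODE vM21, compared with Biopython 1.88. The result for a further promoter motif is not reported here.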

Additional observations from a re-analysis of the deposited data

Results flagged for a closer look

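Of 43 sets of values examined (members in the hepatocyte-like group and 5 members in the XEN-like colonies), 3 had 1 library apart from the others of its group by most of the group's range, and chance alone marks about 1 in 20 such sets. Sult1d1 was highest in hepatocyte-like 1, at 70.8 FPKM with the next at 45.3. Ugt1a7c was lowest in hepatocyte-like 2, at 12.2 FPKM with the next at 41.2. Ugt2a3 was highest in hepatocyte-like 1, at 0.957 FPKM with the next at 0.0484.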

How the results depend on the processing

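The call counts moved most with the choice of hepatocyte-like libraries and with scaling. Members lower than in fibroblasts went from 0 to 4 within the flow cell shared with the fibroblasts and to 3 with hepatocyte-like 3 and 4 alone, and members higher went from 13 to 21 with hepatocyte-like 1 and 2 alone. The choice of these library pairs was made after seeing the data. Calls gained with a pair alone follow at least in part from that choice and are not read as results. With hepatocyte-like 3 and 4 alone, 20 members were lower than in hepatocytes and 20 lower than in tissue, against 13 and 12. That fit tested 51 members among 15259 genes, of which 1175 and 1237 were called lower. Median-ratio scaling gave 6 members higher than in hepatocytes, and 6 higher and 21 lower than in tissue. Within the shared flow cell Gstt1 reversed to -1.91, from 0.02 without a call. The cause of these shifts was not tested. Leaving out 1 hepatocyte-like library at a time tested 52 to 55 members among 15324 to 15474 genes. Against fibroblasts 13 to 16 members were then higher and 0 lower, where 1556 to 1980 and 2116 to 2519 of all genes were. Against hepatocytes 10 to 11 were higher and 12 to 16 lower, where 6158 to 6772 and 1115 to 1178 of all genes were. Against tissue 11 were higher and 12 to 18 lower, where 6278 to 6893 and 1174 to 1245 of all genes were. Leaving out a library of another group leaves that group with 1 library, which is assumed to vary like the other groups. Member counts from those fits are not given, since some gained calls follow from the removal, as for the Sult2a and Sult3a genes. Between hepatocytes and tissue 0 members were called under all alternatives run. A pseudocount of 0.1 gave 18 of 55 and no filter 11 of 59 members higher than in fibroblasts. Of all genes, 1858 of 15657 and 1516 of 25264 were then called higher. No paired analysis was possible because the labels number no replicates of the hepatic groups. Depth is unknown, and the lowest values above 0 were higher in hepatocyte-like 1 and 2 (5th percentile 0.131 and 0.255 FPKM) than in the other 8 libraries (0.0456 to 0.0599), so low genes there are less certain.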
